A study of Mus musculus with 27 samples.

Results

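The Cyp3a family of the mouse was followed across 9 inbred strains in RNA from hepatocytes. Its members were taken by symbol from the GENCODE M21 annotation. They are Cyp3a11, Cyp3a13, Cyp3a16, Cyp3a25, Cyp3a41a, Cyp3a41b, Cyp3a44 and Cyp3a59, 8 of the 43346 genes in the deposited table. All 8 passed the filter on low counts.

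Cyp3a enzymes are cytochrome P450 monooxygenases. They sit in the endoplasmic reticulum, chiefly of liver and intestinal cells, and add oxygen to steroids, bile acids and a large share of drugs, with electrons passed on by cytochrome P450 reductase (Por) and cytochrome b5. Their genes are switched on by ligands of the nuclear receptors PXR (Nr1i2) and CAR (Nr1i3), which bind DNA with RXR, and several mouse members differ between the sexes through the pattern of growth hormone secretion. Cyp3a11 is usually set beside human CYP3A4, while transcripts of Cyp3a41 and Cyp3a44 are known to predominate in female liver.

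The hepatocytes, the parenchymal cells of the liver, came from female mice at 12 weeks of age, and no treatment is named in the labels. The wild-derived strains were CAST/EiJ, PWK/PhJ and WSB/EiJ, and the laboratory strains A/J, C57BL/6J, DBA/2J, NZO/HlLtJ, NOD/ShiLtJ and 129S1/SvImJ. Each strain had 3 libraries labelled as biological replicates, with replicate numbers that are not consecutive in every strain. The study set expression beside chromatin marks in these strains, and expression alone is analysed here. All animals are of 1 sex and 1 age, so nothing in these data speaks of sex or of growth.

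Library totals ran from 17015956 to 35078511 estimated counts, and 1 count corresponded to between 0.0253 and 0.0516 CPM. CPM is the count scaled to the TMM-adjusted library size. The 10 hepatocyte marker genes summed to between 125900 and 392300 CPM per library. Summed markers reached 35.04 to 442 CPM for Kupffer cells, the macrophages of the liver, 62.7 to 809 CPM for liver endothelial cells and 32.6 to 205 CPM for stellate cells. The upper end for Kupffer and endothelial cells was PWK/PhJ replicate 1. Of the lymphocyte markers 8 of 10, Cd3e and Cd8a among them, did not pass the filter. In bulk RNA, fewer cells that make a transcript and less of it per cell cannot be told apart.

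In GRCm38, 7 members form a cluster at chr5:145436309-146113287, a stretch of 0.677 Mb, and Cyp3a13 lies apart at chr5:137892932-137921619. From low to high coordinates the cluster runs Cyp3a16, Cyp3a41b, Cyp3a41a, Cyp3a44, Cyp3a11, Cyp3a25 and Cyp3a59. Only Cyp3a59 among the members is on the plus strand. Every member has 13 exons in its longest coding transcript and a coding sequence of 1509 or 1512 bases.

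How alike the copies are sets how well reads can be told apart. Coding sequences of Cyp3a41a and Cyp3a41b differed at 2 of 1512 bases in the reference, an identity of 99.87%. Cyp3a25 and Cyp3a59 were 97.48% identical, Cyp3a41a and Cyp3a44 95.77%, and Cyp3a11 and Cyp3a41a 95.17%. Cyp3a13 was 74.67% to 76.47% identical to the other members. Of all 100-base windows of the Cyp3a41a transcript, 90.8% also occurred in another Cyp3a transcript, against 88.2% for Cyp3a41b, 5.61% for Cyp3a59, 5.58% for Cyp3a25, 2.79% for Cyp3a44 and 0.31% or less for Cyp3a11, Cyp3a16 and Cyp3a13. The deposited counts of 7 members held fractions of a read in all 27 libraries, and those of Cyp3a13 in none. Values of Cyp3a41a and Cyp3a41b are therefore uncertain singly, and their sum is given beside them. The reference to which each strain's reads were mapped is not given in the sources used here, and where a strain's genes differ from that reference its counts can depend on the choice.

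The sequences upstream of the transcription start are printed for 6 members, to show how alike the windows of the cluster are; that of Cyp3a41b, nearly the same as that of Cyp3a41a, and that of Cyp3a13, outside the cluster, are not shown. They are RefSeq sequences of GRCm38.p6, the C57BL/6J reference, and do not show the other strains. Windows of 250 bases before the RefSeq start were searched on both strands, and all 8 members matched a RefSeq entry. Each is printed 5′ to 3′ on the strand of its gene. Capitals mark AGGTCA or its complement TGACCT, the hexamer that many nuclear receptors bind, and TGTTTAC, a motif of the FOXA liver factors. The windows are chr5:145720137-145720386 (minus strand) for Cyp3a41a, chr5:145805875-145806124 (minus) for Cyp3a44, chr5:145469724-145469973 (minus) for Cyp3a16, chr5:146009619-146009868 (minus) for Cyp3a25 and chr5:146079008-146079256 (plus) for Cyp3a59. For Cyp3a11 only chr5:145879965-145880104 (minus) is shown, because the next 110 bases fall inside the GENCODE gene.
Cyp3a41a: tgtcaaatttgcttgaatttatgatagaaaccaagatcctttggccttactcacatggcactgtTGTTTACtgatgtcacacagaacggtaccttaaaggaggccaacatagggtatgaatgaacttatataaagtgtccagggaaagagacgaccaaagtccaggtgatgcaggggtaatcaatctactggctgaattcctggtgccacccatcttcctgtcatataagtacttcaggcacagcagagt
Cyp3a44: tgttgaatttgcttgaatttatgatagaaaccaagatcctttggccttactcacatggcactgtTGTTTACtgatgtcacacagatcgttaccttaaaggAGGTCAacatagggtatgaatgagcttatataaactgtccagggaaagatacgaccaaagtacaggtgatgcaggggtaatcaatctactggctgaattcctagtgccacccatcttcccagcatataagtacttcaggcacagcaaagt
Cyp3a16: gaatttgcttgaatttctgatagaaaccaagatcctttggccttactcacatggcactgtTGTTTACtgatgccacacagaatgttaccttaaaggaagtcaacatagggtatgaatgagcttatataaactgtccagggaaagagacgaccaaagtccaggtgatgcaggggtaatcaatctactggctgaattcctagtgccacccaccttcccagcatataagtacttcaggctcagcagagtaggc
Cyp3a11: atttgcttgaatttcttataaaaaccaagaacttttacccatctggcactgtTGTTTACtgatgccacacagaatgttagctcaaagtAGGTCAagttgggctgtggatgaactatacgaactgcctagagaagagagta
Cyp3a25: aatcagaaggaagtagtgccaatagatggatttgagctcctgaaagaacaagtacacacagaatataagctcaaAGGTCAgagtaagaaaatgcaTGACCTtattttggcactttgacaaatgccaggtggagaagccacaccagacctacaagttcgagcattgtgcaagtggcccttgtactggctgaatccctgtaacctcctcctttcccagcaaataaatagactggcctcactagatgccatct
Cyp3a59: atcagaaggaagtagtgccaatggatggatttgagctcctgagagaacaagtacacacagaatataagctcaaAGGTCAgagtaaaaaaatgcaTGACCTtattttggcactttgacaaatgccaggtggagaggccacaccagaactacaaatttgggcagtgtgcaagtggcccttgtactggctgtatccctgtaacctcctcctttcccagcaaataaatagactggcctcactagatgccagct

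TGTTTAC was found once in each of Cyp3a11, Cyp3a16, Cyp3a41a, Cyp3a41b and Cyp3a44, its first base 186 to 198 bases before the start, and in none of Cyp3a13, Cyp3a25 and Cyp3a59. Over 27025 RefSeq promoters, 3.09% held it in a window of this length. AGGTCA or its complement was present once in Cyp3a11 and Cyp3a44 and at 2 places in Cyp3a25 and Cyp3a59, and was not found in Cyp3a13, Cyp3a16, Cyp3a41a or Cyp3a41b, against 13.8% of all promoters with a match. The STAT5 motif TTCNNNGAA, present in 7.18% of promoters, matched no member. The Cyp3a41a and Cyp3a41b windows differed at 1 base, an identity of 99.6%. Identity was 94.8% between Cyp3a25 and Cyp3a59, 94.4% between Cyp3a41a and Cyp3a44, 90.9% between Cyp3a16 and Cyp3a41a, 71.7% between Cyp3a11 and Cyp3a41a, and 48.4% between Cyp3a25 and Cyp3a41a. A match is a string of letters and not evidence of binding.

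Summed over the 8 members, the level ran from 6863 ± 265 CPM (SD, n = 3) in NOD/ShiLtJ to 11000 ± 1156 CPM in PWK/PhJ, a 1.60-fold range (log2 0.68 ± 0.20, SE). The strain effect on the sum had an adjusted p of 0.0197 (edgeR quasi-likelihood F test over 9 strains). Of the 36 strain pairs 4 were called at an adjusted p under 0.05, and no strain was called against C57BL/6J in the sum. NOD/ShiLtJ stood at log2 -0.48 against C57BL/6J (adjusted p = 0.0932), although their libraries did not overlap. The called pairs were NOD/ShiLtJ below A/J, DBA/2J and PWK/PhJ, and WSB/EiJ below PWK/PhJ. With no filter on low counts, when 23822 genes entered the fit, the adjusted p of the strain effect on the sum was 0.122 and the call was lost.

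Which members made up that total differed widely. Cyp3a11 gave 81.8% ± 5.35 (SD, n = 3) of the family's estimated counts in NOD/ShiLtJ, 65.3% ± 5.08 in A/J, 42.2% ± 1.94 in C57BL/6J and 9.35% ± 2.91 in PWK/PhJ. Cyp3a41a gave 65.8% ± 4.60 in PWK/PhJ, 48.7% ± 0.503 in NZO/HlLtJ, 37.4% ± 2.51 in C57BL/6J and 4.88% ± 3.91 in NOD/ShiLtJ. NOD/ShiLtJ and PWK/PhJ were at opposite ends for both genes. They were also the lowest and highest strains in the sum of CPM. As a share of all counts of a library, without TMM scaling, the family was lowest in WSB/EiJ (0.620%, libraries 0.510% to 0.706%), below NOD/ShiLtJ (0.731%, libraries 0.720% to 0.749%), and highest in PWK/PhJ (1.12%). In CAST/EiJ the largest share was that of Cyp3a25, with 37.0% ± 2.47, and in WSB/EiJ no member passed a mean of 33.8% ± 16.2, that of Cyp3a41a. Single WSB/EiJ libraries differed: Cyp3a41a gave 51.5% in replicate 2 and Cyp3a11 gave 48.6% in replicate 4. These shares are of counts, which also depend on transcript length.

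**Figure D1:**
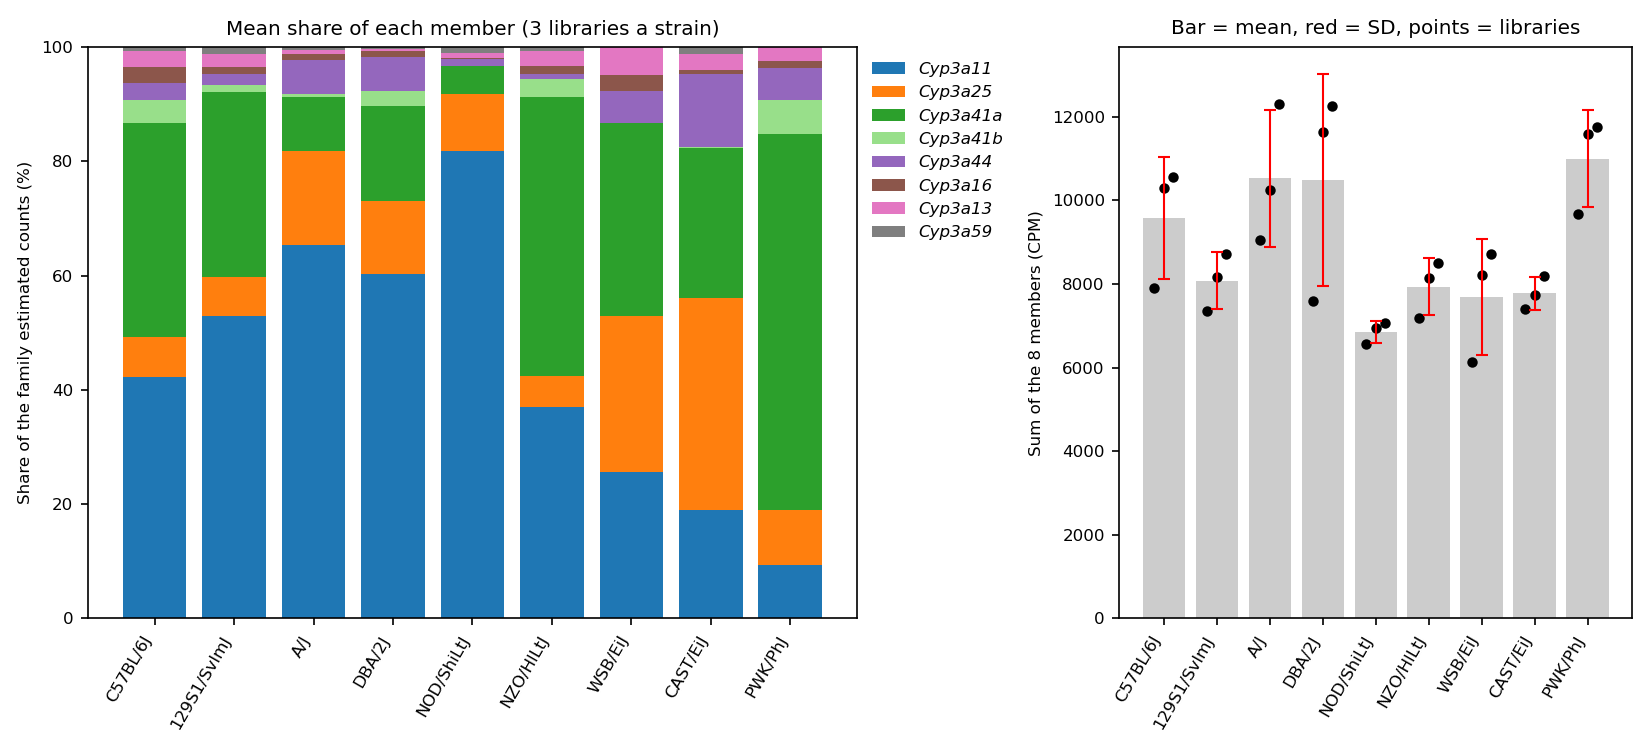
Left, the mean share (%) of each Cyp3a member in the estimated counts of the family for 9 strains, 3 libraries each; right, the sum of the 8 members in CPM (bar, mean; red bar, SD; points, libraries). Cyp3a11 fills 81.8% of the NOD/ShiLtJ column and 9.35% of the PWK/PhJ column, while the sums lie between 6129 and 12300 CPM in all libraries.

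Per kilobase of the longest coding transcript, Cyp3a11 (1639 CPM per kb) and Cyp3a41a (1347) were the most abundant members as the mean of the 9 strain means, followed by Cyp3a25 (636), Cyp3a44 (221), Cyp3a41b (95.6), Cyp3a16 (70.2), Cyp3a13 (64.1) and Cyp3a59 (26.8). Per kilobase of coding sequence, Cyp3a13 (126) stood above Cyp3a16 (80.3), and the order of the other members was the same. The order within a strain was not fixed. In C57BL/6J, Cyp3a41a stood at 1749 ± 361 CPM per kb and Cyp3a11 at 1723 ± 226, with overlapping errors. Per kilobase of coding sequence the values were 2383 and 2671, in the other order. In PWK/PhJ, Cyp3a41a stood at 3504 ± 336 and Cyp3a11 at 441 ± 160.

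All 8 members were called for the strain effect at an adjusted p under 0.05, as were 74.2% of the 14482 genes tested, so the call alone sets few genes apart. The size of the range was larger than for most genes: the median log2 difference between the highest and lowest strain was 3.91 over the 8 members and 1.18 over all tested genes, and 22.1% of tested genes exceeded the member with the smallest range. Over all 36 strain pairs, 150 of 288 member comparisons were called (52.1%), against 23.4% of all gene-by-pair comparisons. Against C57BL/6J, members were higher in 6 of 64 comparisons (9.38%, background 9.52%) and lower in 19 (29.7%, background 10.6%). The 8 comparisons share the C57BL/6J libraries. Of those 6 higher calls, 5 belonged to Cyp3a25 and 1 to Cyp3a44. By strain, NOD/ShiLtJ had 5 members lower and none higher, beside 1232 lower and 1070 higher of all 14482 genes. CAST/EiJ had 3 members lower and 2 higher (2848 and 2658 of all genes) and A/J 3 lower and 1 higher (583 and 552). In 129S1/SvImJ no member was called in either direction, while 1694 genes were lower and 1332 higher. P-values weigh a strain difference against the spread between libraries within strains, estimated jointly over all 9 strains. C57BL/6J was the strain with the highest mean of the Kupffer cell list (4.11 log2 CPM, against 1.92 in 129S1/SvImJ, the lowest). With the means of the Kupffer and endothelial lists as covariates, all 8 members were still called for the strain effect. Of the 25 calls against C57BL/6J, 8 were then lost and 1 gained, and the values are given with each member.

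**Figure D2:**
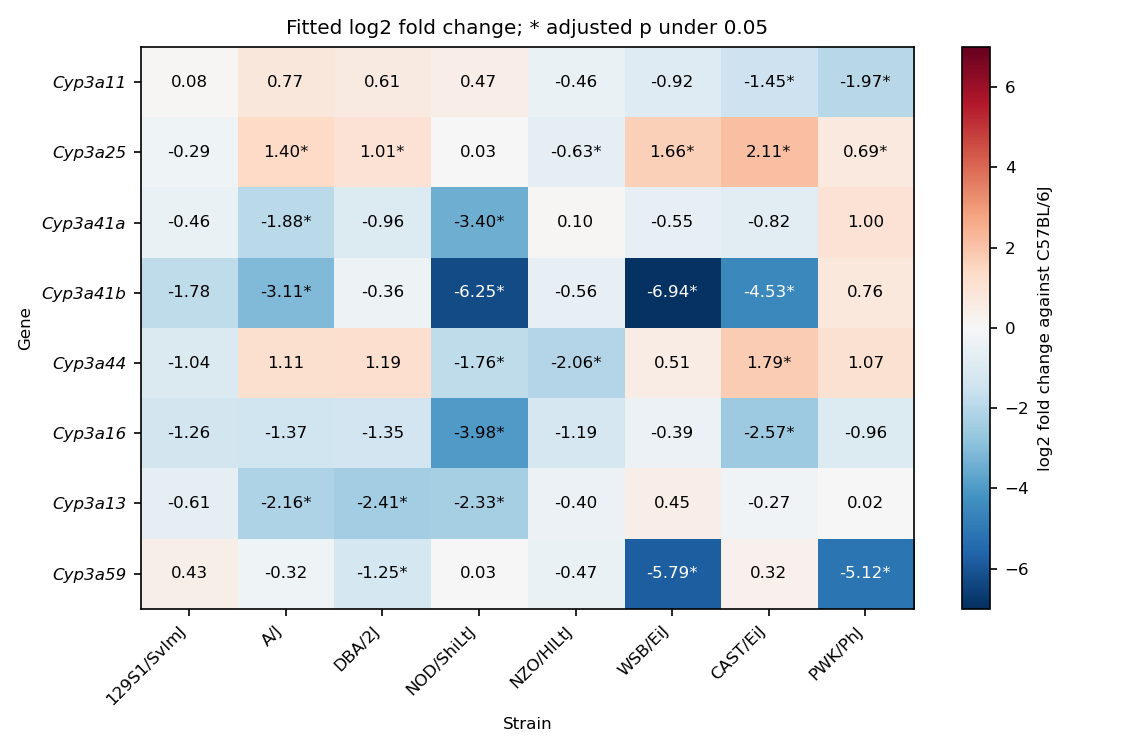
Fitted log2 fold change of each member (rows) in 8 strains (columns) against C57BL/6J, from blue (lower) to red (higher); an asterisk marks an adjusted p under 0.05. Cyp3a25 carries 5 of the 6 higher calls, and the deepest blue cells are Cyp3a41b in WSB/EiJ (-6.94) and NOD/ShiLtJ (-6.25) and Cyp3a59 in WSB/EiJ (-5.79).

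Cyp3a11, the main PXR-responsive member, was highest in A/J, DBA/2J and NOD/ShiLtJ and lowest in CAST/EiJ and PWK/PhJ. The A/J libraries held 7095, 5391 and 8233 CPM in replicates 1 to 3. Those of PWK/PhJ held 1461, 768 and 870 CPM, and those of CAST/EiJ 1350, 1715 and 1369 CPM in replicates 1, 4 and 5. No library of either strain reached the lowest A/J library. The highest strain mean was 6.69 times the lowest (log2 2.74 ± 0.44, SE), and the strain effect had an adjusted p of 3.84e-05. C57BL/6J, with 3468, 4516 and 4131 CPM, was 2.73-fold above CAST/EiJ (log2 -1.45 ± 0.42, adjusted p = 0.00811) and 3.91-fold above PWK/PhJ (log2 -1.97 ± 0.42, adjusted p = 0.00111). The remaining 6 strains were not called against it. With the covariates the CAST/EiJ difference was log2 -1.39 (adjusted p = 0.0898). NZO/HlLtJ held 2732 to 3081 CPM, 129S1/SvImJ 3558 to 5100, NOD/ShiLtJ 5397 to 5711 and DBA/2J 5425 to 7284. None of the 8 pairs of neighbours in the order of strain means was called.

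WSB/EiJ was the exception in reproducibility for Cyp3a11. Its replicates 2, 3 and 4 held 477, 1707 and 4242 CPM, an 8.89-fold spread that covers both the lowest library of all and values within the C57BL/6J range. Without replicate 4, WSB/EiJ was called below C57BL/6J (log2 -1.89, adjusted p = 0.000878), against log2 -0.92 and an adjusted p of 0.157 with it. The same libraries held 3157, 2488 and 1722 CPM of Cyp3a41a, in the opposite order. The mean of 12 acute phase genes (log2 CPM) was 8.12, 8.33 and 9.33 in them, that of 16 female-biased genes 7.47, 7.22 and 6.73, and that of 16 targets of PXR and CAR 6.86, 7.48 and 7.59. The mean of 10 periportal genes also rose along these libraries (9.94, 10.24 and 10.30). That of 9 growth hormone signalling genes fell (5.61, 5.31 and 4.99), and that of the Kupffer cell list did neither (2.69, 2.98 and 2.25). The part of these lists in the Cyp3a11 values was not tested.

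**Figure D3:**
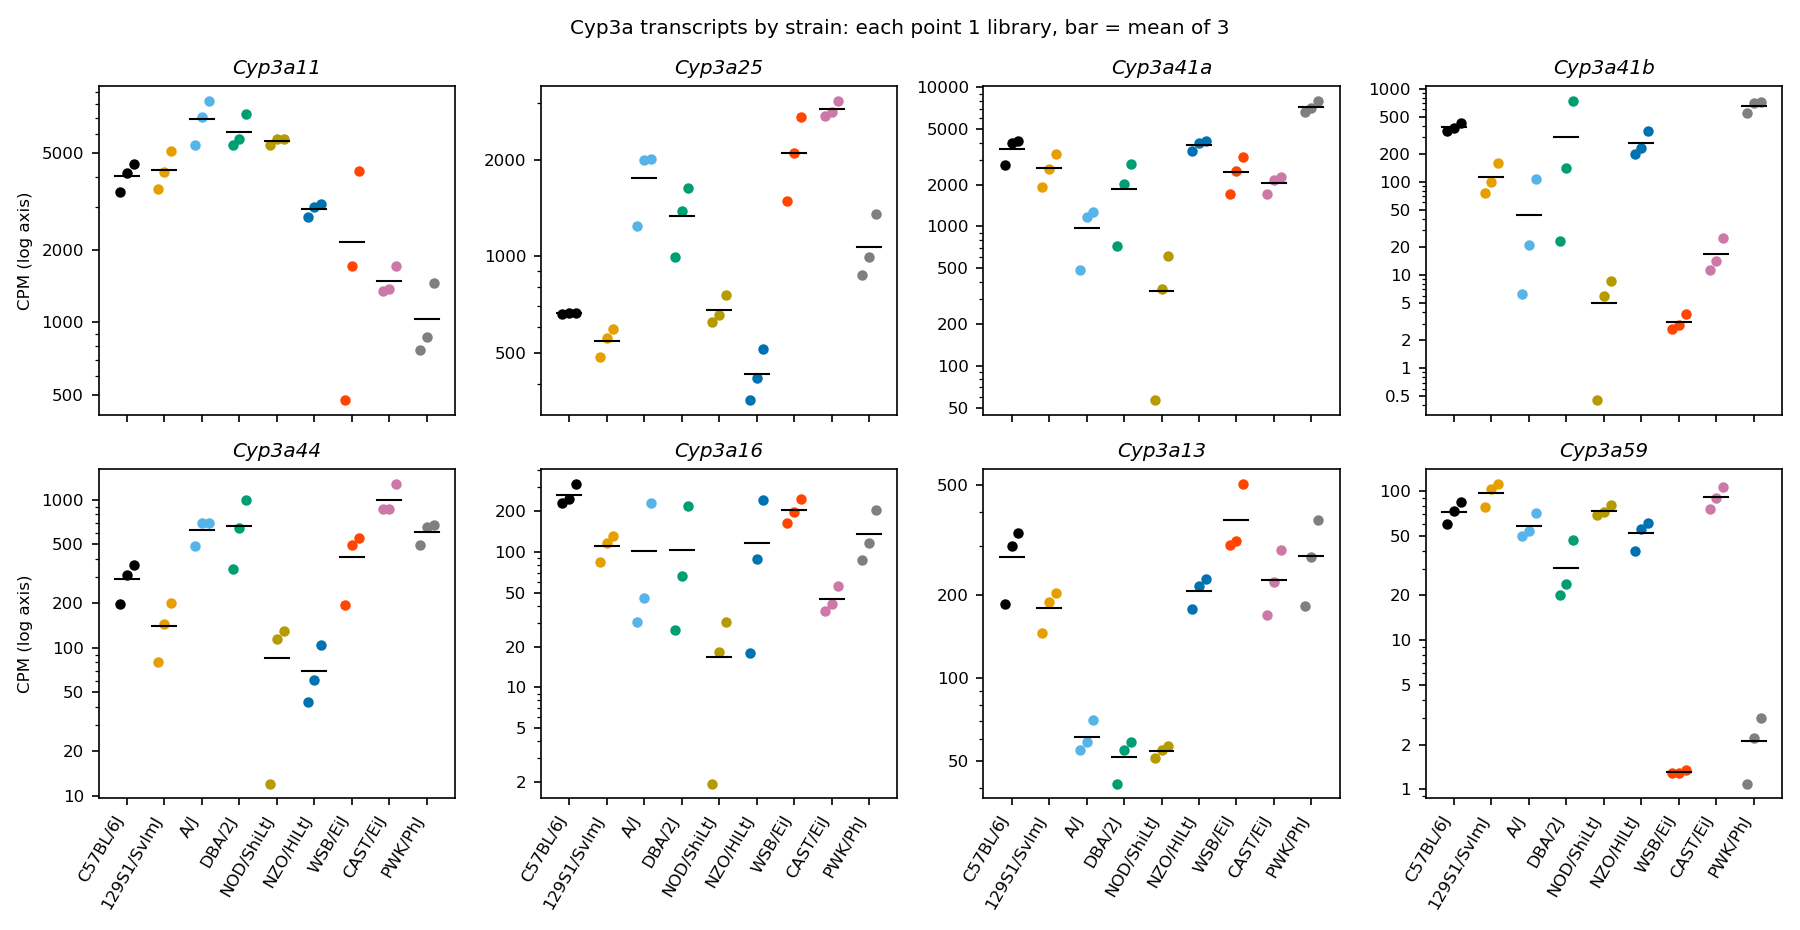
CPM on a log axis of each member in 9 strains; each point is 1 library and each bar the mean of 3. Cyp3a59 drops to between 1.09 and 3.04 CPM in WSB/EiJ and PWK/PhJ, Cyp3a13 separates A/J, DBA/2J and NOD/ShiLtJ from the other strains, and Cyp3a16 and Cyp3a41b spread widely within A/J, DBA/2J, NOD/ShiLtJ and, for Cyp3a16, NZO/HlLtJ.

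Cyp3a41a, a female-predominant member, had its highest strain where Cyp3a11 was lowest. Over the 9 strain means of log2 CPM the correlation with Cyp3a11 was r = -0.62 (rho = -0.68), a description. PWK/PhJ was highest, with 7110, 7960 and 6587 CPM, and no library of another strain exceeded 4100 CPM. NOD/ShiLtJ was lowest, with 354, 614 and 56.7 CPM. A/J held 487, 1274 and 1174 CPM, and its lowest library overlapped those of NOD/ShiLtJ. The range was log2 4.40 ± 0.59 (21.1-fold) with an adjusted p of 2.81e-05 for the strain effect. Against C57BL/6J (2749, 3962 and 4100 CPM), Cyp3a41a was lower in NOD/ShiLtJ (10.6-fold, log2 -3.40 ± 0.56, adjusted p = 0.000118) and A/J (3.68-fold, log2 -1.88 ± 0.53, adjusted p = 0.0253). The PWK/PhJ value, log2 1.00 above C57BL/6J, had an adjusted p of 0.161 and was not called, although the libraries did not overlap. The A/J call was lost without A/J replicate 1 (adjusted p = 0.125) or 3 (0.0549) or C57BL/6J replicate 2 (0.0662) or 4 (0.0667). Without NOD/ShiLtJ replicate 2 the NOD/ShiLtJ difference was log2 -4.12. NZO/HlLtJ (3494, 4095 and 4003 CPM) lay closest to C57BL/6J, and 129S1/SvImJ, WSB/EiJ, CAST/EiJ and DBA/2J had means of 2617, 2456, 2044 and 1856 CPM.

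Cyp3a41b, its near-identical copy, had the widest range of all members. PWK/PhJ held 712, 699 and 542 CPM, C57BL/6J 348, 378 and 425, and NZO/HlLtJ 233, 351 and 199. WSB/EiJ held 2.91, 3.83 and 2.62 CPM, NOD/ShiLtJ 6.00, 8.70 and 0.453, and CAST/EiJ 14.1, 11.2 and 24.9. The last 3 strains were apart from the first 3 without overlap. DBA/2J had the widest spread, with 736, 140 and 23.2 CPM in replicates 2, 3 and 4, from above every PWK/PhJ library to within the CAST/EiJ range. A/J held 6.17, 107 and 20.7 CPM and 129S1/SvImJ 99.8, 76.2 and 159. The range from PWK/PhJ to WSB/EiJ was log2 7.70 ± 1.13, or 208-fold, with an adjusted p of 1.53e-06. The estimated counts behind the WSB/EiJ values were 56.9 to 95.4 per library. Against C57BL/6J, Cyp3a41b was lower in WSB/EiJ (log2 -6.94 ± 1.10, adjusted p = 5.41e-05), NOD/ShiLtJ (-6.25 ± 1.05, adjusted p = 0.000159), CAST/EiJ (-4.53 ± 0.96, adjusted p = 0.000698) and A/J (-3.11 ± 0.90, adjusted p = 0.0308). In WSB/EiJ and CAST/EiJ, Cyp3a41a was not called against C57BL/6J. With the covariates the CAST/EiJ call was lost (log2 -2.09, adjusted p = 0.231), and the differences were -5.26 in WSB/EiJ and -4.62 in NOD/ShiLtJ, both called. The A/J value was -4.83 without A/J replicate 2, and its call was lost without A/J replicate 1 (adjusted p = 0.113) or 3 (0.138) or C57BL/6J replicate 1 (0.0506), 2 (0.0573) or 4 (0.0613). In NOD/ShiLtJ the difference was -6.87 without replicate 2, and in 129S1/SvImJ a log2 of -1.78 was called only when no filter was applied (adjusted p = 0.0487, otherwise 0.133).

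Because the division of reads between the copies is uncertain, the sum of Cyp3a41a and Cyp3a41b was tested as well. It ran from 347 ± 283 CPM in NOD/ShiLtJ to 7870 ± 766 in PWK/PhJ (log2 4.51 ± 0.61, adjusted p = 3.30e-05). Without NOD/ShiLtJ replicate 2 the range was log2 5.22, and without its replicate 3 log2 4.00. The sum was lower than in C57BL/6J (3988 ± 776 CPM) in NOD/ShiLtJ (adjusted p = 0.00012) and A/J (adjusted p = 0.0239) and not called elsewhere, the same calls as for Cyp3a41a. Cyp3a41b was a small part of the sum in C57BL/6J (384 of 3988 CPM), so the sum says little about Cyp3a41b itself.

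Cyp3a44, also known for its predominance in females, was highest in CAST/EiJ and lowest in NZO/HlLtJ. The CAST/EiJ libraries held 872, 868 and 1271 CPM and those of NZO/HlLtJ 61.0, 105 and 43.0 CPM, with NOD/ShiLtJ at 114, 130 and 12.1 CPM. The range was log2 3.85 ± 0.60 (adjusted p = 1.33e-05). NZO/HlLtJ was second only to PWK/PhJ for Cyp3a41a and lowest for Cyp3a44. C57BL/6J (198, 310 and 363 CPM) was exceeded by CAST/EiJ (3.46-fold, log2 1.79 ± 0.55, adjusted p = 0.0132) and was above NZO/HlLtJ (log2 -2.06 ± 0.56, adjusted p = 0.00867) and NOD/ShiLtJ (log2 -1.76 ± 0.55, adjusted p = 0.0321). DBA/2J, A/J and PWK/PhJ, with means of 661, 627 and 610 CPM, were not called against it. With the covariates the NOD/ShiLtJ call (log2 -1.20, adjusted p = 0.294) and the NZO/HlLtJ call (log2 -1.25, adjusted p = 0.346) were lost, and CAST/EiJ stood at log2 2.64 (adjusted p = 0.0145). The NOD/ShiLtJ call was also lost without NOD/ShiLtJ replicate 3 (adjusted p = 0.0882) or C57BL/6J replicate 2 (0.0745) or 4 (0.115), and the CAST/EiJ call without C57BL/6J replicate 1 (0.0516).

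Cyp3a16, best known from fetal and young liver, was at 230.4, 315 and 246 CPM in C57BL/6J, the highest strain. In NOD/ShiLtJ it was at 18.1, 30.1 and 1.95 CPM. The difference was log2 -3.98 ± 0.90 (adjusted p = 0.00323), and CAST/EiJ, with 36.5, 41.3 and 55.7 CPM, differed from C57BL/6J by log2 -2.57 ± 0.84 (adjusted p = 0.0184). The strain effect had an adjusted p of 0.0146, the weakest among the members, and 9 of 36 pairs were called. Libraries of a strain disagreed. A/J held 30.5, 231 and 45.3 CPM, NZO/HlLtJ 88.5, 239 and 17.8, and DBA/2J 217, 66.2 and 26.4 in replicates 2, 3 and 4. With the covariates neither call against C57BL/6J held (NOD/ShiLtJ log2 -2.21, adjusted p = 0.168; CAST/EiJ log2 -0.32, adjusted p = 0.88). The CAST/EiJ call was also lost without CAST/EiJ replicate 1 (adjusted p = 0.0678) or 4 (0.0581), and the NOD/ShiLtJ difference was log2 -4.70 without NOD/ShiLtJ replicate 2.

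Cyp3a25, a steroid-hydroxylating member of liver and intestine, was the only member with more calls above C57BL/6J than below it. C57BL/6J held 668, 661 and 664 CPM. CAST/EiJ held 2737, 3053 and 2830 CPM, WSB/EiJ 1487, 2722 and 2100, and A/J 2003, 1243 and 2008. All libraries of these strains were above those of C57BL/6J. The differences were log2 2.11 ± 0.23 in CAST/EiJ (4.33-fold, adjusted p = 1.39e-07), 1.66 ± 0.23 in WSB/EiJ (adjusted p = 9.32e-06), 1.40 ± 0.23 in A/J (adjusted p = 0.00013), 1.01 ± 0.23 in DBA/2J (adjusted p = 0.00374) and 0.69 ± 0.23 in PWK/PhJ (adjusted p = 0.0253). NZO/HlLtJ, with 356, 417 and 515 CPM, was lower (log2 -0.63 ± 0.23, adjusted p = 0.0382). The strain effect had an adjusted p of 5.8e-10. Neighbours in the order CAST/EiJ, WSB/EiJ, A/J, DBA/2J, PWK/PhJ were not called, PWK/PhJ was above NOD/ShiLtJ (log2 0.66, adjusted p = 0.031), and neighbours among the 4 lowest strains were not called. The smallest differences were the least stable. The PWK/PhJ call was lost with the covariates (log2 0.42, adjusted p = 0.242), without PWK/PhJ replicate 1 (0.127) and without C57BL/6J replicate 1 (0.0519), 2 (0.0672) or 4 (0.0701). The NZO/HlLtJ call was lost with the covariates (log2 -0.37, adjusted p = 0.499), with no filter (0.0622), without NZO/HlLtJ replicate 1 (0.159) or 2 (0.107) and without C57BL/6J replicate 1 (0.0585), 2 (0.0832) or 4 (0.0944).

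Cyp3a59 split the strains into a group of 7 and a pair. Its WSB/EiJ libraries held 1.35, 1.29 and 1.29 CPM and its PWK/PhJ libraries 3.04, 2.20 and 1.09 CPM, from 27.7 to 75.5 estimated counts per library. In the remaining 7 strains the lowest library, of DBA/2J, held 20.3 CPM and the highest, of 129S1/SvImJ, 111 CPM. C57BL/6J held 60.2, 84.4 and 73.2 CPM. Against C57BL/6J the differences were log2 -5.79 ± 0.35 in WSB/EiJ (adjusted p = 4.87e-12) and -5.12 ± 0.33 in PWK/PhJ (adjusted p = 1.5e-11), and both strains were called against each of the other 7 strains. The difference between the pair was not called (log2 0.67, adjusted p = 0.15). DBA/2J (47.2, 23.9 and 20.3 CPM) was also lower than C57BL/6J (log2 -1.25 ± 0.27, adjusted p = 0.00265). Cyp3a59 had the largest F statistic of the family (adjusted p = 3.19e-13 for the strain effect). Cyp3a25, its closest relative, was above C57BL/6J in both WSB/EiJ and PWK/PhJ. Cyp3a25 was also above C57BL/6J in DBA/2J (log2 1.01), and in CAST/EiJ (2.11) and A/J (1.40), where Cyp3a59 was not called. The part of read assignment between Cyp3a25 and Cyp3a59 was not tested.

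Cyp3a13, which lies outside the cluster and is abundant in intestine, had whole counts in all libraries and shared no 100-base window with another member. It separated A/J (54.8, 58.5 and 70.2 CPM), DBA/2J (54.8, 58.6 and 41.4) and NOD/ShiLtJ (51.3, 55.0 and 56.6) from all other strains. The lowest library elsewhere, of 129S1/SvImJ, held 146 CPM, and the highest, of WSB/EiJ, 504 CPM. Against C57BL/6J (185, 335 and 300.4 CPM) the differences were log2 -2.16 ± 0.26 in A/J (adjusted p = 1.98e-06), -2.41 ± 0.27 in DBA/2J (adjusted p = 3.97e-07) and -2.33 ± 0.26 in NOD/ShiLtJ (adjusted p = 5.47e-07). In the order of means, the step from 129S1/SvImJ to A/J was called (log2 1.55, adjusted p = 0.000126) and none of the other 7 steps was. WSB/EiJ was called above C57BL/6J only with the covariates (log2 0.74, adjusted p = 0.0317), and 129S1/SvImJ below it only without C57BL/6J replicate 1 (log2 -0.82, adjusted p = 0.0208). These 3 strains were also the 3 highest for Cyp3a11. The correlation of Cyp3a11 with Cyp3a13 over the 9 strain means of log2 CPM was r = -0.79 (rho = -0.83), given as a description of 9 points that share libraries and scaling. Within strains the sign was the opposite, with r = 0.26 and rho = 0.60 over 27 libraries.

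Over all members, 4 of 64 steps between neighbouring strain means were called: those named for Cyp3a13, Cyp3a25 and the DBA/2J to PWK/PhJ step of Cyp3a59 (log2 3.86, adjusted p = 1.02e-09), and the A/J to NOD/ShiLtJ step of Cyp3a41a (log2 1.52, adjusted p = 0.0423). The other orders between neighbours are not resolved by 3 libraries a strain.

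Libraries of the same strain differed most in the 4 members Cyp3a41b, Cyp3a16, Cyp3a44 and Cyp3a41a. The SD within a strain, pooled over strains on the log2 scale, was 1.35 for Cyp3a41b, 1.22 for Cyp3a16, 0.84 for Cyp3a44 and 0.78 for Cyp3a41a, against a median of 0.29 over all tested genes. A larger spread was found in 0.877%, 1.39%, 6.08% and 8.36% of genes. Cyp3a25 (0.28), Cyp3a13 (0.33) and Cyp3a59 (0.38) were near the median, and Cyp3a11 stood at 0.58, with its widest spread in WSB/EiJ.

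The deviations of those 4 members from their strain mean went together from library to library. Over the 27 libraries, r was 0.88 between Cyp3a41a and Cyp3a44 (rho = 0.81), 0.88 between Cyp3a41a and Cyp3a41b (rho = 0.83), 0.86 between Cyp3a16 and Cyp3a41b (rho = 0.84), 0.78 between Cyp3a16 and Cyp3a44, 0.75 between Cyp3a16 and Cyp3a41a and 0.75 between Cyp3a41b and Cyp3a44. Without NOD/ShiLtJ replicate 3, the library with the lowest values, these 6 correlations lay between 0.66 and 0.85. For Cyp3a11 against the same 4 genes r lay between -0.25 and -0.08. Pairs among the other members were positive as well: 0.65 for Cyp3a25 with Cyp3a59, 0.545 for Cyp3a13 with Cyp3a59 and 0.53 for Cyp3a13 with Cyp3a25. Cyp3a11 had an r of 0.53 with Cyp3a25, 0.26 with Cyp3a13 and 0.15 with Cyp3a59. The points of a strain share its mean, all share library scaling, and Cyp3a41a and Cyp3a41b share reads, so the values are descriptions. Cyp3a16 and Cyp3a44 shared few windows with the others, as given above.

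**Figure D4:**
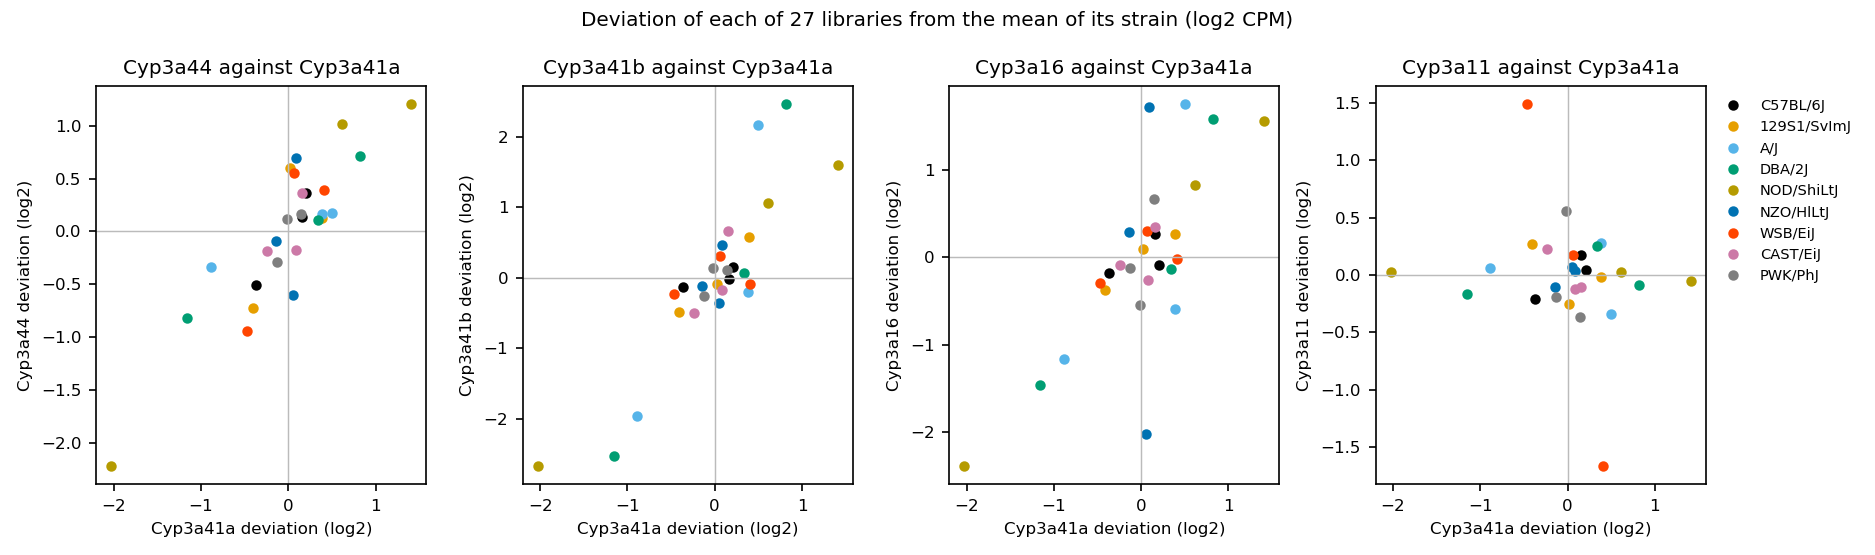
Deviation of each of 27 libraries from the mean of its strain (log2 CPM): Cyp3a44, Cyp3a41b, Cyp3a16 and Cyp3a11 (y axes) against Cyp3a41a (x axes), coloured by strain. The first 3 panels run along a rising diagonal (r = 0.88, 0.88 and 0.75), and the Cyp3a11 panel does not (r = -0.18).

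NOD/ShiLtJ replicate 3 showed the pattern in 1 library. Against replicates 1 and 2 it was low for Cyp3a16 (1.95 CPM against 18.1 and 30.1), Cyp3a41a (56.7 against 354 and 614), Cyp3a41b (0.453 against 6.00 and 8.70) and Cyp3a44 (12.1 against 114 and 130). For Cyp3a11 it held 5711 CPM against 5711 and 5397, for Cyp3a25 657 against 624 and 757, and for Cyp3a59 69.4 against 72.2 and 80.9. Within the family, the low values of that library were those of these 4 genes.

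The female-biased list, 16 liver genes that contain no Cyp3a member, moved with the same 4. Its mean log2 CPM in NOD/ShiLtJ was 6.47, 6.67 and 5.91 in replicates 1 to 3. Over the 27 deviations from strain means, its r was 0.73 with Cyp3a16, 0.69 with Cyp3a41a, 0.69 with Cyp3a41b and 0.67 with Cyp3a44, and 0.62 to 0.68 without that library. It was -0.43 with Cyp3a11, 0.31 with Cyp3a13, -0.12 with Cyp3a25 and 0.12 with Cyp3a59. The Kupffer cell list had an r of 0.35 to 0.53 with the 4 genes, and the endothelial list 0.17 to 0.45. Without NOD/ShiLtJ replicate 3 these ranges were 0.43 to 0.59 and 0.15 to 0.515. The part of other cell types in the shared variation was not tested.

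Among the 16 female-biased genes, 15 were called for the strain effect, beside 74.2% of all tested genes, with a median log2 range of 3.22 beside 1.18. The leading members were Cyp2b13 (adjusted p = 1.01e-14, log2 range 7.70), a female-specific P450 that was highest in DBA/2J and lowest in 129S1/SvImJ, Sult3a1 (1.74e-13, 6.29), a sulfotransferase highest in CAST/EiJ, and Cyp2b9 (4e-13, 9.27), highest in WSB/EiJ. Against C57BL/6J the list had 11 higher and 38 lower calls of 128, beside 9.52% and 10.6% over all genes. The list mean was lowest in 129S1/SvImJ, at 5.82 log2 CPM, and NOD/ShiLtJ was the lowest strain for 2 of the 16 genes, Cyp2a4 and Sult2a1.

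Of 18 genes that control Cyp3a transcription, 17 were tested and 12 called, beside 74.2% of all tested genes, with a median log2 range of 0.75 beside 1.18 over all tested genes. Nr1i2, which encodes PXR, ran from 34.3 ± 3.10 CPM in WSB/EiJ to 49.5 ± 10.4 in CAST/EiJ (log2 0.53, adjusted p = 0.0124), and no strain was called against C57BL/6J. Nr1i3, which encodes CAR, ran from 112 ± 28.2 CPM in PWK/PhJ to 261 ± 50.6 in C57BL/6J (log2 1.23, adjusted p = 0.000321), and 5 strains were lower than C57BL/6J. Rxra, the partner of PXR and CAR, had a log2 range of 0.88 (adjusted p = 0.00195). Within strains, the mean of the list had an r of -0.49 with Cyp3a11, -0.55 with Cyp3a13, -0.41 with Cyp3a25, -0.43 with Cyp3a59 and -0.13 to -0.03 with the other 4 members. The growth hormone signalling list, with Ghr and Stat5b, had 5 of 9 genes called, beside the same 74.2%, and a median log2 range of 0.99.

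Of 16 known targets of PXR and CAR outside the family, all were called (74.2% of all tested genes), with a median log2 range of 2.84. Of 128 comparisons with C57BL/6J, 14 were higher and 44 lower, beside 9.52% and 10.6% over all genes. Aldh1a7, an aldehyde dehydrogenase (adjusted p = 7.33e-13, log2 range 3.04), was highest in CAST/EiJ, the drug efflux pump Abcb1a (2.94e-12, 5.44) in WSB/EiJ and the glutathione transferase Gstm3 (1.09e-11, 9.14) in NOD/ShiLtJ. The list mean was lowest in PWK/PhJ, at 5.44 log2 CPM, the strain with the lowest Cyp3a11 and the highest Cyp3a41a. It was highest in DBA/2J, at 7.31. WSB/EiJ libraries held 6.86, 7.48 and 7.59, while the Cyp3a11 mean of that strain (2142 CPM) was above only CAST/EiJ and PWK/PhJ. Within strains, the list had an r of 0.57 with Cyp3a11, 0.59 with Cyp3a25, 0.53 with Cyp3a13 and 0.24 to 0.38 with the other 5 members over 27 libraries.

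The list of P450 partners holds genes that hand electrons to the enzymes and also Pgrmc1 and Pgrmc2. Its genes were all called, 6 of 6, beside 74.2% of all tested genes. Their median log2 range of 1.18 was that of all tested genes. Por, the reductase, was highest in C57BL/6J and lowest in NZO/HlLtJ (log2 1.10, adjusted p = 0.0116). Pgrmc2, Cyb5b and Cyb5r3, a heme-binding membrane protein, a cytochrome b5 and its reductase, had the largest F statistics (adjusted p from 7e-06 to 7.5e-05).

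Of the other Cyp3a genes in the annotation, Cyp3a57, just outside the cluster on the plus strand, was near the limit of detection. It held 2.68 ± 0.765 CPM in CAST/EiJ and 0.287 or less in each other strain (adjusted p = 6.8e-08). Among the other protein-coding genes within 200 kb of the cluster, Zfp655 (18.3 CPM) and Rnf6 (21.3 CPM) were called with log2 ranges of 0.98 and 0.76 (adjusted p = 0.000471 and 0.00279), while Zscan25 and Cdk8 were not called (adjusted p = 0.28 and 0.288). Gm6309 and 1700001J03Rik were not tested for lack of counts, and Gm5565 was not analysed here.

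For each member, the genes most alike over the 9 strain means of log2 CPM were sought among 6087 genes averaging at least 10 CPM. They were Slc25a37 (r = 0.96), Tbc1d2b and Ugt3a2 for Cyp3a11, and Hc (0.93), Bco2 and Cebpa for Cyp3a13. For Cyp3a16 they were Ctdsp2 (0.95), Fnip2 and Pnpla6, and for Cyp3a25 Xpo1 (0.95) and Mesd. For Cyp3a41a they were Prkca (0.94), Rmnd1 and Dock4, for Cyp3a41b Dctn4 (0.89), Mup14 and Tm7sf3, for Cyp3a44 the female-biased Cyp2a4 (0.91), Afm and Fam8a1, and for Cyp3a59 Pkd2 (0.97), Dtnb and Lin7a. Each r was picked as the highest over these genes, rests on 9 points and is given as a description.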

How the data were processed

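RNA-seq of hepatocytes from 27 libraries, 3 from each of 9 strains, was analysed from a table of estimated counts (expected counts) per Ensembl gene, as deposited by the authors and not scaled to depth. The submitters' processing notes name the builds GRCm38 and mm10 and the tools FastQC 0.11.5 and DESeq2, without their role. The aligner and the counting program are not given in the sources used here. Per the labels' protocols, libraries were made from polyadenylated RNA with a kit that does not state strand. Values with a fraction (tolerance 1e-06) made up 11.1% of the table.

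Symbols came from GENCODE M21 (42462 of 43346 IDs, and IDs without a symbol held 0.0579% of counts). Counts were rounded, filtered with filterByExpr (14482 genes) and scaled by TMM (factors 0.722 to 1.23). A single quasi-likelihood model with strain as factor was fitted to all libraries with edgeR 4.0.16 in R 4.3.3 (limma 3.58.1), and p-values were adjusted over all tested genes by the method of Benjamini and Hochberg, with a threshold of 0.05. Summed counts of Cyp3a41a and Cyp3a41b, and of the family, were added as features in a second fit. Correlations and list means were taken on log2 CPM (prior count 2). Promoters came from RefSeq tables, and identities from global alignments with Biopython 1.88. The steps were tested on simulated counts with known changes.

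Alternatives were the replicate number as a second factor, Kupffer and endothelial list means as covariates, DESeq2 1.42.0, its size factors within edgeR, 2 other filters (none, or a mean count of 10 or more), other transcript lengths, a prior count of 0.5, and leaving out each library. Named outside the family were other Cyp3a genes, protein-coding genes within 200 kb, from each list described up to 3 genes with the largest F averaging at least 1 CPM together with Nr1i2, Nr1i3 and Por, and for each member the 3 genes most alike over strain means. Some genes that this rule selects are not reported here. Ghr, Stat5b, Cd3e, Cd8a and Sult2a1 are named beyond this rule as examples, after their values were seen. The members and lists were chosen with earlier results of these data known.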

Additional observations from a re-analysis of the deposited data

How the results depend on the processing

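All values are log2 differences from C57BL/6J or log2 ranges over strains from edgeR's quasi-likelihood fit. With 3 libraries a strain, most neighbouring strains were not resolved, and members near 1 CPM rest on few counts. The 8 strain effects of the members were called under every alternative, including each of the 27 fits that left out a library. The range of the summed family was 0.678 (adjusted p = 0.122) with no filter on low counts, the only setting that ended its call; the cause was not tested. DESeq2, its size factors in edgeR and a mean count of 10 or more changed no call of a member against C57BL/6J. A prior count of 0.5 gave the same 24 most alike genes.

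Same-numbered libraries did not deviate together: over 76 pairs the correlation of deviations ran from -0.293 to 0.275 (median 0.023), and 17 were over 0.1. With the replicate block, 24 calls against C57BL/6J were made in place of 25 and 9350 genes in place of 10746 were called for the strain effect. Cyp3a25 in PWK/PhJ was no longer called (0.63, adjusted p = 0.0778). Cyp3a25 in NOD/ShiLtJ (-0.027) and Cyp3a41a in NZO/HlLtJ (-0.098), both uncalled, changed sign under the block, and Cyp3a41b in A/J, called in both fits, moved from -3.11 to -3.80. For Cyp3a16, replicate 2 was the highest library in PWK/PhJ, NZO/HlLtJ, C57BL/6J, NOD/ShiLtJ, A/J and DBA/2J, the lowest in 129S1/SvImJ and between the others in WSB/EiJ, and its effect of replicate number had an adjusted p of 1 (unadjusted p = 0.0278).

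With the Kupffer and endothelial covariates, 13 uncalled differences changed sign and stayed uncalled; the cause was not tested. They were Cyp3a13 in NZO/HlLtJ (0.176), CAST/EiJ (0.08) and PWK/PhJ (-0.303), Cyp3a16 in 129S1/SvImJ (1.008), NZO/HlLtJ (0.051), WSB/EiJ (1.078) and PWK/PhJ (0.369), Cyp3a41a in 129S1/SvImJ (0.434), WSB/EiJ (0.079) and CAST/EiJ (0.09), and Cyp3a41b in 129S1/SvImJ (0.692), DBA/2J (0.907) and NZO/HlLtJ (1.79). With the counts of both Cyp3a41 copies summed, the uncalled NZO/HlLtJ difference of Cyp3a41b became 0.049.

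Leaving out 1 library, uncalled differences that changed sign ranged from -0.059 to 0.203 for Cyp3a11 in 129S1/SvImJ, -0.258 to 0.24 for Cyp3a13 in PWK/PhJ, -0.043 to 0.091 for Cyp3a25 in NOD/ShiLtJ, -0.059 to 0.205 for Cyp3a41a in NZO/HlLtJ, -2.237 to 0.19 for Cyp3a41b in DBA/2J and -0.087 to 0.155 for Cyp3a59 in NOD/ShiLtJ. Between 20 and 26 calls against C57BL/6J were made.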

Other observations

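Members of the Cyp3a family are known to be expressed mainly around the central vein, so lists of zonated genes were set beside them. Of 10 pericentral genes 7 were called for the strain effect, beside 74.2% of all tested genes, with a median log2 range of 1.78 beside 1.18. The largest F statistics were those of Oat, ornithine aminotransferase, highest in CAST/EiJ (1189 ± 11.1 CPM, SD, n = 3) and lowest in WSB/EiJ (149.9 ± 20.8), Rhbg, an ammonium transporter, highest in DBA/2J (12.7 ± 1.75) and lowest in CAST/EiJ (2.55 ± 0.561), and Lect2, a secreted protein, highest in NOD/ShiLtJ (196 ± 24.5). Within strains, the mean of the pericentral list had an r between -0.27 and 0.29 with the 8 members over 27 libraries.

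All 10 periportal genes were called, beside the same 74.2%, with a median log2 range of 1.70. Aldh1b1, a mitochondrial aldehyde dehydrogenase, was highest in WSB/EiJ (296 ± 81.4 CPM) and lowest in NOD/ShiLtJ (44.6 ± 8.49), Gls2, the liver glutaminase, was highest in WSB/EiJ (604 ± 74.6), and Hal, histidine ammonia lyase, in PWK/PhJ (785 ± 51.5). Within strains, the list mean had an r of 0.46 with Cyp3a11 and -0.48 with both Cyp3a16 and Cyp3a44. All 12 acute phase genes were called, beside 74.2% of all tested genes, led by Apcs, Lcn2 and Orm1, and the list mean had an r of 0.59 with Cyp3a13 and 0.47 with Cyp3a11. These correlations are descriptions of libraries that share scaling.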
